A study of Mus musculus with 30 samples.

Results

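Forelimb buds of mouse embryos treated with C59 were compared between 12 h and 18 h after treatment. The comparison used the 6 libraries whose labels give C59 and these times, 3 for each time, of 30 RNA-sequencing libraries in the series. The embryos were wild-type Swiss Albino, and all were at E10.5 when the mother received a single intraperitoneal injection. C59 (Wnt-C59) is a small molecule that inhibits porcupine, and the controls received DMSO, its solvent, diluted in phosphate-buffered saline. The C59 solution also held methylcellulose and Tween-20, which are not named for the control injection. By the study's methods the RNA of each library came from 1 pair of forelimb buds. The 3 DMSO libraries at 12 h and the 3 at 18 h share no library with the C59 comparison, and they give the change over the same hours without the drug. The methods state that replicates of a condition and time came from 3 or more litters. This stands in their section on embryo collection and staging, which opens with embryos for whole-mount staining. Their account of the RNA-sequencing does not give the litter of a library, and p-values measure only the spread between these libraries. A library is a whole limb bud, in which fewer cells of a type and less RNA per cell cannot be told apart.

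WNT proteins are secreted signals that carry a lipid. Porcupine attaches this lipid in the endoplasmic reticulum, and without it WNTs are neither carried out of the cell nor bound by their Frizzled receptors. In canonical signalling a bound receptor stabilises β-catenin, which acts with TCF/LEF proteins on target genes. Several of these targets encode inhibitors of the pathway itself, among them *Axin2*, *Notum* and *Nkd1*, so their level is often read as a measure of signalling. In the limb bud WNTs from the ectoderm, together with FGFs from the apical ridge at its distal edge, keep the distal mesenchyme proliferating and undifferentiated. Sonic hedgehog from the posterior mesenchyme, the BMP antagonist gremlin and the ridge FGFs form a feedback loop that sustains outgrowth. Cartilage, marked by *Sox9*, forms in the core, away from the WNT source.

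The C59 libraries held 18252021, 23932093 and 21710194 counts at 12 h and 21756444, 19990377 and 20779664 at 18 h. *Tbx5*, which marks the forelimb, lay between 50.7 and 70.9 FPKM in the 12 libraries, against 2.80 to 5.55 FPKM for *Tbx4* and 0.271 to 1.46 FPKM for *Pitx1*, both hindlimb markers. The mesenchymal marker *Prrx1* lay between 80.9 and 123 FPKM. Transcripts of both sexes (*Xist* and *Ddx3y*) were above 1 FPKM in 1 C59 library at 12 h and in 1 at 18 h. They were so in 1 DMSO library at 18 h too. The study's methods state that more than 1 pair of buds was dissected and stored, and that RNA for each library was isolated from 1 pair. How transcripts of both sexes came to be present was not tested. Of the remaining C59 libraries 2 at 12 h held only *Xist*, and at 18 h 1 held only *Xist* and 1 only *Ddx3y*. In DMSO 2 libraries at 12 h and 2 at 18 h held only *Xist*, and 1 at 12 h held only *Ddx3y*. C59 18 h replicate 3 stood apart from the other 2 replicates of its group. Its log2 difference to them had an SD over genes of 0.399, against 0.209 to 0.285 in the other 5 C59 libraries, and chi-square per degree of freedom was 47.6 and 39.9 against replicates 1 and 2, which gave 4.33 between themselves. The difference moved with base composition and with transcript length. In that library the fifth of genes with the lowest GC content had a median log2 difference of -0.504, and the fifth with the highest GC content had one of 0.285. The fifth with the shortest transcripts had a median of 0.194 and the fifth with the longest one of -0.203. The change of each gene under C59 and the number of a list that rose or fell under C59 are therefore also given without this library, written as "without 18 h replicate 3" or, after a fold change given without its error, as a second log2 fold change in parentheses. The DMSO libraries held between 18331160 and 38974885 counts, most in 18 h replicate 2. In DMSO 18 h replicate 1 also stood apart, with chi-square per degree of freedom of 17.3 and 11.6 against replicates 2 and 3, which gave 3.82 between themselves. Of its counts 97.8% were in protein-coding genes, against 95.3% and 95.6% in those 2 replicates.

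**Figure D1:**
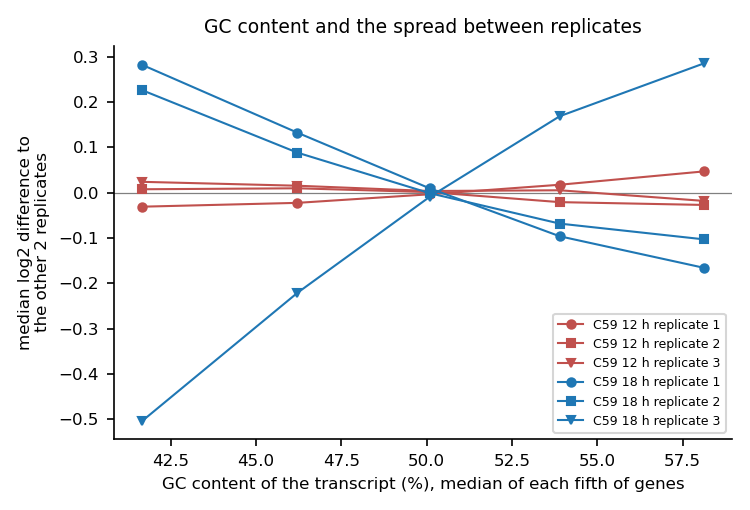
Median log2 difference of each C59 library to the other 2 replicates of its group (y axis), for genes in 5 classes of equal size by transcript GC content, from lowest to highest (x axis). C59 18 h replicate 3 runs from -0.504 to 0.285, the widest span of the 6 libraries.

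Of 13517 protein-coding autosomal genes tested, 430 were higher at 18 h than at 12 h (3.18%) and 277 were lower (2.05%) at an edgeR adjusted p below 0.05, which is what "rose", "fell" and "passed" mean from here on. A log2 fold change beyond 1 was also met by 104 of the genes that rose (0.769% of those tested) and 68 of those that fell (0.503%). For 2108 genes (15.6%) all 18 h libraries lay above all 12 h libraries, and for 2013 (14.9%) all lay below. The median log2 fold change over all genes tested was -0.0121. With 18 h replicate 3 left out the counts were 1373 higher (10.1%) and 1362 lower (10%) of 13625 tested, and with the fold 138 (1.01%) and 97 (0.712%). All 707 genes that passed with every library passed without this library too, in the same direction. The share over all genes to set beside a list count below was 3.18% higher and 2.05% lower with all libraries. Without 18 h replicate 3 it was 10.1% and 10%, so larger list counts in that fit may only follow the larger share. Without C59 12 h replicates 1, 2 and 3 in turn the counts were 118, 101 and 95 higher and 89, 51 and 46 lower, and without C59 18 h replicates 1 and 2 they were 264 and 207 higher and 151 and 105 lower. All 707 kept their direction in each of these fits. Where a named gene lost its call in such a fit, the library is given with the range of log2 fold changes over the 6 fits that leave out 1 C59 library each. For the longer lists the number of calls in these fits is given instead, and for a difference between treatments the 12 libraries of both treatments were left out in turn. In DMSO 545 genes rose (4.12%) and 427 fell (3.23%) over the same hours, of 13228 tested, 157 (1.19%) and 16 (0.121%) of them with a log2 fold change beyond 1. The number that changed in DMSO lay between 127 and 2121 with single DMSO libraries left out, lowest without 12 h replicate 1. The fitted spread between replicates was larger in C59 than in DMSO with all libraries (edgeR biological coefficient of variation 0.121 and 0.0754). Without C59 18 h replicate 3 it was 0.0664 in C59, below that of DMSO. Numbers that passed in C59 and in DMSO are therefore not directly comparable, and DMSO numbers of the lists below are given with all libraries only. The change in C59 minus the change in DMSO was positive for 676 genes (4.94%) and negative for 486 (3.55%) of 13694 tested, beyond 1 for 113 (0.825%) and 173 (1.26%). With C59 18 h replicate 3 left out it was positive for 1239 (8.99%) and negative for 866 (6.28%) of 13782, beyond 1 for 107 (0.776%) and 210 (1.52%). This test of the difference is called the difference between treatments below, and a gene is said to differ between treatments where it passed.

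Feedback genes of canonical WNT signalling were among the largest increases. Of 13 such genes 7 rose and 2 fell (3.18% and 2.05% over all genes), with a median log2 fold change of 0.84 against -0.0121 over all genes tested. With 18 h replicate 3 left out they were 8 and 2 (10.1% and 10% over all genes). The number that rose was 5 to 7 with any other C59 library left out. Neither gene that fell passed when any 1 C59 12 h library was left out, and 1 of them passed without C59 18 h replicate 1 or 2. In DMSO none of the 13 rose and 1 fell (median -0.07), and 10 differed between treatments in the positive and 2 in the negative direction.

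*Axin2* encodes a scaffold of the complex that marks β-catenin for degradation (ENSMUSG00000000142, chr11:108920349-108950783, mm10). It was at 38.9, 38.6 and 43.7 CPM (counts scaled to the normalised library size) in the C59 libraries at 12 h and at 105, 89.1 and 98.2 CPM at 18 h. DMSO libraries held 112, 110.1 and 110.2 CPM at 12 h and 111, 109 and 110.3 CPM at 18 h. All C59 libraries at 18 h were above all those at 12 h and below all DMSO libraries. *Axin2* rose by 1.27 ± 0.10 on the log2 scale (1.25 without 18 h replicate 3, edgeR adjusted p = 0.00061), where ± gives the standard error here and for every log2 value below, and its change exceeded that in DMSO by 1.30 ± 0.11 (1.29 without 18 h replicate 3, edgeR adjusted p = 1.3e-05).

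*Notum* encodes a secreted enzyme that removes the lipid from WNT proteins (ENSMUSG00000042988, chr11:120653788-120661175). It lay at 0.817, 0.294 and 0.598 CPM at 12 h and at 6.03, 4.90 and 7.24 CPM at 18 h under C59, against 6.64, 8.29 and 7.69 CPM and 5.90, 5.81 and 5.35 CPM in DMSO. The 18 h values thus spanned those of DMSO at the same time. *Notum* rose by 3.44 ± 0.33 on the log2 scale (3.28 without 18 h replicate 3, edgeR adjusted p = 0.0013), and the difference between treatments was 3.87 ± 0.34 (3.72 without 18 h replicate 3, edgeR adjusted p = 1.5e-05).

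*Nkd2* and *Nkd1* encode Naked cuticle proteins, which bind Dishevelled inside the cell and restrain the pathway. *Nkd2* (ENSMUSG00000021567, chr13:73818534-73847631) was at 15.6, 15.5 and 20.2 CPM at 12 h and 70.4, 70.8 and 83.6 CPM at 18 h under C59, and between 97.6 and 105 CPM in the 6 DMSO libraries. It rose by 2.13 ± 0.14 on the log2 scale (2.03 without 18 h replicate 3, edgeR adjusted p = 0.00024), with a difference between treatments of 2.07 ± 0.14 (1.98 without 18 h replicate 3, edgeR adjusted p = 5.3e-06). *Nkd1* went from 41.2, 37.4 and 38.3 CPM to 81.4, 73.3 and 82.3 CPM and rose by 1.02 ± 0.09 on the log2 scale (0.98 without 18 h replicate 3, edgeR adjusted p = 0.0012). In DMSO *Nkd1* held 82.1, 84.6 and 82.4 CPM at 12 h and 77.6, 78.6 and 81.2 CPM at 18 h, so that the C59 values at 18 h overlapped those of DMSO.

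*Apcdd1*, which encodes a membrane inhibitor that binds WNTs and LRP5, was at 15.7, 19.0 and 22.8 CPM at 12 h and 83.0, 69.3 and 85.5 CPM at 18 h under C59. All 3 libraries at 18 h lay above those at 12 h and below the DMSO libraries, which held 98.3, 104 and 106 CPM and 111, 108 and 119 CPM. *Apcdd1* rose by 2.04 ± 0.15 on the log2 scale (1.97 without 18 h replicate 3, edgeR adjusted p = 0.00042), and differed between treatments by 1.94 ± 0.16 (1.88 without 18 h replicate 3, edgeR adjusted p = 1.3e-05). *Znrf3*, a ubiquitin ligase that clears Frizzled receptors, rose by 0.62 ± 0.10 on the log2 scale (0.67 without 18 h replicate 3, edgeR adjusted p = 0.011), and its relative *Rnf43* had a log2 fold change of 0.04 ± 0.16 (0.13 without 18 h replicate 3, edgeR adjusted p = 0.91). *Znrf3* missed the threshold when C59 12 h replicate 2 or 3 was left out (log2 fold change 0.58 to 0.67 over the 6 fits).

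The nuclear TCF/LEF factors moved in different directions. *Tcf7* was at 12.7, 13.4 and 16.2 CPM at 12 h and 24.4, 18.9 and 24.5 CPM at 18 h, against 47.1, 44.5 and 56.2 CPM and 39.5, 37.1 and 39.7 CPM in DMSO. It rose by 0.68 ± 0.15 on the log2 scale (0.60 without 18 h replicate 3, edgeR adjusted p = 0.034), and DMSO levels fell by 0.35 over the same hours, a difference of 1.05 ± 0.18 (0.98 without 18 h replicate 3, edgeR adjusted p = 0.0028). *Tcf7l2* was at 149, 139 and 125 CPM at 12 h and 90.5, 90.6 and 61.4 CPM at 18 h and fell by 0.77 ± 0.15 on the log2 scale (-0.62 without 18 h replicate 3, edgeR adjusted p = 0.021). *Tcf7l1*, mostly a repressor of WNT targets, fell by 0.49 ± 0.09 on the log2 scale (-0.57 without 18 h replicate 3, edgeR adjusted p = 0.020). *Lef1* had a log2 fold change of 0.48 ± 0.12 (0.58 without 18 h replicate 3, edgeR adjusted p = 0.051) and missed the threshold with all libraries, as did the targets *Sp5* (0.86, 0.86 without 18 h replicate 3, adjusted p = 0.16) and *T* (0.84, 0.93 without 18 h replicate 3, adjusted p = 0.27). *Tcf7* missed the threshold when any 1 C59 12 h library or C59 18 h replicate 1 was left out (log2 fold change 0.60 to 0.80 over the 6 fits). *Tcf7l2* missed the threshold when any 1 C59 12 h library was left out (log2 fold change -0.86 to -0.62 over the 6 fits). *Tcf7l1* missed the threshold when any 1 C59 12 h library or C59 18 h replicate 1 or 2 was left out (log2 fold change -0.57 to -0.44 over the 6 fits).

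Promoter windows in RefSeq (GRCm38.p6, 250 bases before to 50 after the start) were found for 10 of the 13 feedback symbols, as 16 windows. They were searched on both strands for CTTTGAT, a core of the TCF/LEF motif. It was present in 1 of the 16 windows (6.25%), against 3.73% of 32851 windows of all genes. Sites outside these windows were not searched, and the study reports that β-catenin bound mostly to distal regions. The window of *Axin2* (chr11:108920099-108920398, plus strand) is shown because the gene is the standard readout of the pathway, and the motif is absent from it on either strand, as it is from the 5 windows found for 4 of the 7 genes that rose. It is written 5′ to 3′.
Axin2: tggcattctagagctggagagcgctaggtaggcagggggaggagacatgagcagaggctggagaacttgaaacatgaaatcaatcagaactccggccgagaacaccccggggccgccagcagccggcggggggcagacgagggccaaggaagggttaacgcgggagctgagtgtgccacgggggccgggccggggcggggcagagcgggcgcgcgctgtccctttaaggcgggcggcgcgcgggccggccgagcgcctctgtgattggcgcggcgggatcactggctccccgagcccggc

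**Figure D2:**
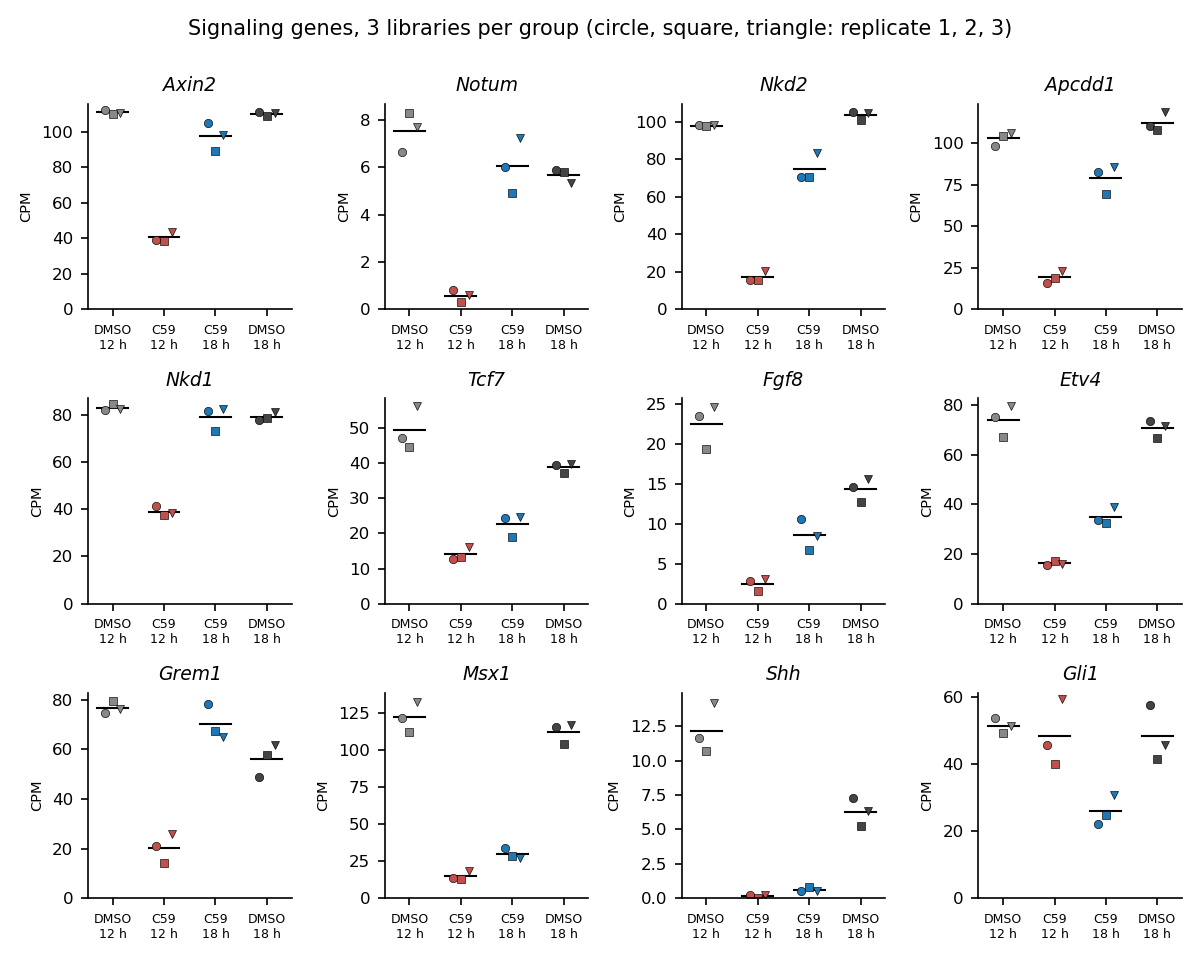
CPM of 12 signalling genes (y axes) in the libraries of each group (x axis: C59 12 h, C59 18 h, DMSO 12 h, DMSO 18 h). Circles, squares and triangles are replicates 1, 2 and 3 and bars are group means. *Axin2*, *Nkd2* and *Apcdd1* at C59 18 h lie between the C59 12 h and the DMSO libraries, while *Gli1* is lowest at C59 18 h.

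Ligands and receptors of WNT changed in few members. Of 16 ligand genes tested 1 rose and none fell, also without 18 h replicate 3 (median 0.02), and none differed between treatments. The one that rose, *Wnt11*, a mostly non-canonical ligand, was at 44.0, 40.4 and 45.7 CPM at 12 h and 61.5, 72.0 and 83.6 CPM at 18 h. It rose by 0.74 ± 0.12 on the log2 scale (0.61 without 18 h replicate 3, edgeR adjusted p = 0.013), and it also rose by 0.61 ± 0.08 on the log2 scale (edgeR adjusted p = 0.0054) in DMSO. Its difference between treatments was 0.16 ± 0.16 (0.03 without 18 h replicate 3, edgeR adjusted p = 0.60). *Wnt11* missed the threshold when any 1 C59 12 h library was left out (log2 fold change 0.61 to 0.85 over the 6 fits).

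Among 16 receptor and secretion genes 2 rose and 1 fell (median 0.05), or 3 and 2 without 18 h replicate 3. *Fzd10*, a Frizzled receptor, was at 21.8, 21.5 and 27.6 CPM at 12 h and 54.8, 47.1 and 54.1 CPM at 18 h, with DMSO at 94.2, 102 and 104 CPM and 79.5, 87.9 and 97.1 CPM. It rose by 1.13 ± 0.12 on the log2 scale (1.09 without 18 h replicate 3, edgeR adjusted p = 0.0028) and differed between treatments by 1.34 ± 0.15 (1.30 without 18 h replicate 3, edgeR adjusted p = 0.00015). *Fzd1* rose by 0.38 ± 0.08 on the log2 scale (0.34 without 18 h replicate 3, edgeR adjusted p = 0.031) and *Fzd5* fell by 1.01 ± 0.17 on the log2 scale (-0.86 without 18 h replicate 3, edgeR adjusted p = 0.012). *Fzd1* missed the threshold when any 1 C59 12 h library or C59 18 h replicate 1 or 2 was left out (log2 fold change 0.34 to 0.41 over the 6 fits). *Fzd5* missed the threshold when C59 12 h replicate 2 or 3 was left out (log2 fold change -1.13 to -0.86 over the 6 fits).

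R-spondins are secreted proteins that strengthen WNT signalling through LGR receptors by holding back the ligases ZNRF3 and RNF43. Of 7 members 2 rose and 1 fell (median 0.47), or 3 and 1 without 18 h replicate 3. *Rspo3* was at 38.7, 42.5 and 44.7 CPM at 12 h and 22.8, 22.8 and 14.8 CPM at 18 h under C59, without overlap, and fell by 1.06 ± 0.16 on the log2 scale (-0.89 without 18 h replicate 3, edgeR adjusted p = 0.0090). Its difference between treatments was -1.27 ± 0.18 (-1.10 without 18 h replicate 3, edgeR adjusted p = 0.00097). *Rspo1* and the receptor gene *Lgr5* rose by 0.86 (0.78) and 0.76 (0.80), both at an edgeR adjusted p of 0.043. *Rspo3* missed the threshold when C59 12 h replicate 2 or 3 was left out (log2 fold change -1.16 to -0.89 over the 6 fits). *Rspo1* missed the threshold when any 1 C59 12 h library or C59 18 h replicate 2 was left out (log2 fold change 0.72 to 1.03 over the 6 fits). *Lgr5* missed the threshold when C59 12 h replicate 1 or 2 or C59 18 h replicate 1 or 2 was left out (log2 fold change 0.65 to 0.96 over the 6 fits).

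Of 12 secreted antagonists 2 rose and 1 fell, also without 18 h replicate 3. *Wif1*, whose product binds WNTs outside the cell, lay at 19.7, 17.1 and 14.0 CPM at 12 h and 47.5, 42.9 and 47.3 CPM at 18 h, against 37.9, 46.8 and 43.2 CPM and 52.1, 52.4 and 58.1 CPM in DMSO. At 18 h the C59 libraries were above those at 12 h and below those of DMSO. *Wif1* rose by 1.44 ± 0.13 on the log2 scale (1.41 without 18 h replicate 3, edgeR adjusted p = 0.0013) and differed between treatments by 1.12 ± 0.16 (1.09 without 18 h replicate 3, edgeR adjusted p = 0.0010). *Dkk2*, which encodes a ligand of the co-receptor LRP6, went from 10.4, 11.4 and 11.6 CPM to 28.4, 32.1 and 27.7 CPM. It rose by 1.40 ± 0.11 on the log2 scale (1.43 without 18 h replicate 3, edgeR adjusted p = 0.00061), it rose by 0.88 ± 0.10 on the log2 scale (edgeR adjusted p = 0.0023) in DMSO too, and the difference was 0.55 ± 0.14 (0.58 without 18 h replicate 3, edgeR adjusted p = 0.033). *Dkk1* lay at 1.63, 2.73 and 2.99 CPM at 12 h and 2.06, 2.25 and 2.30 CPM at 18 h under C59, all below the 8.75 to 13.8 CPM of DMSO, with a log2 fold change of -0.17 ± 0.26 (-0.21 without 18 h replicate 3, edgeR adjusted p = 0.75). *Frzb*, a secreted relative of the Frizzled receptors, fell by 0.45 ± 0.10 on the log2 scale (-0.39 without 18 h replicate 3, edgeR adjusted p = 0.041). *Frzb* missed the threshold when any 1 C59 12 h library or C59 18 h replicate 2 was left out (log2 fold change -0.56 to -0.39 over the 6 fits). The difference for *Dkk2* passed in 3 of the 12 fits that leave out 1 library, between 0.48 and 0.64, and did not pass on leaving out any 1 C59 12 h library, or C59 18 h replicate 2, or any 1 DMSO 12 h library, or DMSO 18 h replicate 1 or 3.

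Several genes downstream of FGF rose as well. FGFs of the apical ridge act through the ERK kinases, which induce ETS factors and feedback inhibitors. Of 12 such feedback and target genes 6 rose and none fell, with a median log2 fold change of 0.45, while in DMSO none changed (median -0.08). There were 8 without 18 h replicate 3, without C59 12 h replicate 2 there were 3, and without each other C59 library there were 4 to 6. The difference between treatments was positive for 7 of the 12.

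*Etv4*, an ETS factor, was at 15.5, 17.1 and 16.2 CPM at 12 h and 33.7, 32.5 and 39.1 CPM at 18 h (ENSMUSG00000017724, chr11:101769742-101785371). DMSO libraries held 75.3, 67.2 and 79.5 CPM and 73.5, 66.8 and 71.6 CPM. The C59 values at 18 h lay between the other groups without overlap. *Etv4* rose by 1.11 ± 0.11 on the log2 scale (1.01 without 18 h replicate 3, edgeR adjusted p = 0.0018), with a difference between treatments of 1.20 ± 0.14 (1.11 without 18 h replicate 3, edgeR adjusted p = 0.00016). *Spry4* and *Spry1*, which encode Sprouty inhibitors of the pathway, rose by 1.04 (1.06) and 0.61 (0.51) on the log2 scale, with edgeR adjusted p = 0.0030 and 0.023. *Dusp4* and *Dusp6*, which encode phosphatases of the MAP kinases, rose by 0.97 (0.92) and 0.59 (0.56), with adjusted p = 0.0033 and 0.012. *Etv5* rose by 0.85 (0.80) at an edgeR adjusted p of 0.011. *Spry1* missed the threshold when any 1 C59 12 h library or C59 18 h replicate 1 was left out (log2 fold change 0.51 to 0.70 over the 6 fits). *Dusp6* missed the threshold when any 1 C59 12 h library was left out (log2 fold change 0.53 to 0.68 over the 6 fits). *Etv5* missed the threshold when C59 12 h replicate 2 was left out (log2 fold change 0.74 to 0.95 over the 6 fits).

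Among 12 FGF ligands and receptors tested *Fgf8*, the main ligand of the apical ridge, was the only one to pass with all libraries (ENSMUSG00000025219, chr19:45736798-45742915), while without 18 h replicate 3, 2 rose and 1 fell. It was at 2.89, 1.56 and 3.13 CPM at 12 h and 10.7, 6.79 and 8.44 CPM at 18 h, against 23.5, 19.4 and 24.6 CPM and 14.7, 12.8 and 15.7 CPM in DMSO. The groups did not overlap. *Fgf8* rose by 1.78 ± 0.27 on the log2 scale (1.80 without 18 h replicate 3, edgeR adjusted p = 0.0098) under C59 and fell by 0.66 ± 0.12 on the log2 scale (edgeR adjusted p = 0.013) in DMSO, a difference of 2.47 ± 0.30 (2.49 without 18 h replicate 3, edgeR adjusted p = 0.00027). *Fgf4*, a further ridge ligand, was too low for the test in C59, at 0.109, 0.126 and 0 CPM and 1.22, 0.450 and 0.911 CPM, and differed between treatments by 3.52 ± 0.85 (3.47 without 18 h replicate 3, edgeR adjusted p = 0.021). The difference for *Fgf4* passed in 8 of the 12 fits that leave out 1 library, between 2.95 and 4.10, and did not pass on leaving out C59 12 h replicate 3, or DMSO 12 h replicate 1 or 3, or DMSO 18 h replicate 2. *Fgf10*, the ligand made in the mesenchyme, had a log2 fold change of -0.25 ± 0.14 (-0.12 without 18 h replicate 3, edgeR adjusted p = 0.35).

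Of 7 transcription factors of the ridge none rose and 1 fell, or 2 without 18 h replicate 3. *Dlx2*, a homeobox gene, fell by 0.72 ± 0.16 on the log2 scale (-0.61 without 18 h replicate 3, edgeR adjusted p = 0.036). *Dlx2* missed the threshold when any 1 C59 12 h library or C59 18 h replicate 2 was left out (log2 fold change -0.85 to -0.61 over the 6 fits). The 16 surface ectoderm markers summed to between 519 and 711 CPM at 12 h and between 514 and 585 CPM at 18 h under C59, with 1 that rose (*Krt15*) and 1 that fell (*Krt8*). The call of *Krt15* was lost when C59 12 h replicate 1 or 2 or C59 18 h replicate 2 was left out. That of *Krt8* was lost when any C59 library but 18 h replicate 3 was left out. Of these markers 1 rose and 2 fell without 18 h replicate 3. No member of that list was at 0, and its part in the *Fgf8* value was not tested.

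The main target genes of hedgehog signalling fell. Sonic hedgehog from the posterior mesenchyme is read through *Gli1*, *Ptch1* and *Hhip*, which its signal induces. All 3 fell, 1 gene of the list rose, and 10 of the 14 did not pass. There were 3 increases and 4 decreases without 18 h replicate 3. *Gli1* was at 45.7, 40.0 and 59.3 CPM at 12 h and 22.0, 24.9 and 30.8 CPM at 18 h under C59, without overlap, and between 41.5 and 57.4 CPM in DMSO. It fell by 0.90 ± 0.17 on the log2 scale (-1.05 without 18 h replicate 3, edgeR adjusted p = 0.021) and differed between treatments by -0.78 ± 0.22 (-0.92 without 18 h replicate 3, edgeR adjusted p = 0.044).

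*Ptch1*, the receptor that restrains the pathway until hedgehog binds, was at 127, 147 and 152 CPM at 12 h and 95.3, 95.1 and 83.2 CPM at 18 h. It fell by 0.64 ± 0.10 on the log2 scale (-0.59 without 18 h replicate 3, edgeR adjusted p = 0.0098), with a difference between treatments of -0.57 ± 0.15 (-0.52 without 18 h replicate 3, edgeR adjusted p = 0.030). *Hhip*, a decoy that binds hedgehog, fell by 1.18 ± 0.24 on the log2 scale (-1.03 without 18 h replicate 3, edgeR adjusted p = 0.025). *Gas1*, a co-receptor, rose by 0.33 ± 0.08 on the log2 scale (0.32 without 18 h replicate 3, edgeR adjusted p = 0.047). *Gli1* missed the threshold when C59 12 h replicate 1 or 3 or C59 18 h replicate 1 or 2 was left out (log2 fold change -1.05 to -0.72 over the 6 fits). *Ptch1* missed the threshold when C59 12 h replicate 2 or 3 was left out (log2 fold change -0.72 to -0.59 over the 6 fits). *Hhip* missed the threshold when any 1 C59 12 h library or C59 18 h replicate 1 was left out (log2 fold change -1.40 to -1.01 over the 6 fits). *Gas1* missed the threshold when any 1 C59 12 h library or C59 18 h replicate 1 or 2 was left out (log2 fold change 0.31 to 0.37 over the 6 fits). The difference for *Gli1* passed in 3 of the 12 fits that leave out 1 library, between -0.92 and -0.61, and did not pass on leaving out C59 12 h replicate 1 or 3, or C59 18 h replicate 1 or 2, or any 1 DMSO 12 h library, or DMSO 18 h replicate 1 or 3. The difference for *Ptch1* passed in 5 of the 12 fits that leave out 1 library, between -0.68 and -0.47, and did not pass on leaving out C59 12 h replicate 2 or 3, or any 1 DMSO 12 h library, or DMSO 18 h replicate 2 or 3.

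*Shh* itself stayed low under C59. It was at 0.218, 0.0420 and 0.276 CPM at 12 h and 0.514, 0.799 and 0.527 CPM at 18 h, values that rest on few counts, against 11.6, 10.7 and 14.2 CPM and 7.30, 5.24 and 6.32 CPM in DMSO. The 18 h libraries lay above those at 12 h, all below the DMSO range. The log2 fold change was 1.78 ± 0.56 (1.87 without 18 h replicate 3, edgeR adjusted p = 0.10) under C59, *Shh* fell by 0.97 ± 0.16 on the log2 scale (edgeR adjusted p = 0.010) in DMSO, and the difference between treatments was 2.78 ± 0.52 (2.87 without 18 h replicate 3, edgeR adjusted p = 0.0052).

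BMP genes rose in part. Of 16 ligands, receptors and antagonists 4 rose and none fell under C59 (median 0.46), or 5 and 1 without 18 h replicate 3, and 9 rose and 1 fell in DMSO (median 0.51). The difference between treatments was positive for 3 and negative for 3. *Grem1*, which encodes the antagonist gremlin (ENSMUSG00000074934, chr2:113746164-113758646), was at 20.97, 14.2 and 25.9 CPM at 12 h and 78.1, 67.2 and 65.1 CPM at 18 h under C59, and at 74.6, 79.5 and 76.4 CPM and 49.0, 57.7 and 61.8 CPM in DMSO. At 18 h the C59 libraries were above the DMSO libraries. *Grem1* rose by 1.78 ± 0.19 on the log2 scale (1.83 without 18 h replicate 3, edgeR adjusted p = 0.0025) under C59 and fell by 0.45 ± 0.08 on the log2 scale (edgeR adjusted p = 0.013) in DMSO, a difference of 2.26 ± 0.22 (2.31 without 18 h replicate 3, edgeR adjusted p = 5.1e-05).

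*Bmp4* went from 41.3, 35.9 and 31.6 CPM to 59.8, 68.4 and 69.7 CPM and rose by 0.86 ± 0.12 on the log2 scale (0.81 without 18 h replicate 3, edgeR adjusted p = 0.0069), and differed between treatments by 0.97 ± 0.14 (0.93 without 18 h replicate 3, edgeR adjusted p = 0.00085). *Bmp7* rose by 0.77 ± 0.10 on the log2 scale (0.72 without 18 h replicate 3, edgeR adjusted p = 0.0052), with a difference of 0.81 ± 0.11 (0.75 without 18 h replicate 3, edgeR adjusted p = 0.00081). *Bmp2* rose by 0.92 ± 0.12 on the log2 scale (0.90 without 18 h replicate 3, edgeR adjusted p = 0.0052) and also rose by 0.64 ± 0.09 on the log2 scale (edgeR adjusted p = 0.0063) in DMSO, and its difference was 0.31 ± 0.15 (0.29 without 18 h replicate 3, edgeR adjusted p = 0.22). These 4 calls held with any 1 of the 6 C59 libraries left out. The negative differences were those of the antagonists *Nog* (-1.55, adjusted p = 0.0082) and *Bmper* (-0.95, 0.012) and of the receptor *Bmpr1b* (-1.09, 0.0031).

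Among 12 genes that respond to BMP 1 rose and none fell, or 2 and 1 without 18 h replicate 3 (10.1% and 10% over all genes). *Msx1*, a homeobox gene of the distal limb, was at 13.7, 13.3 and 18.6 CPM at 12 h and 34.2, 28.4 and 27.0 CPM at 18 h, against 122, 112 and 133 CPM and 116, 104 and 117 CPM in DMSO. It rose by 0.97 ± 0.15 on the log2 scale (1.03 without 18 h replicate 3, edgeR adjusted p = 0.011) and differed between treatments by 1.12 ± 0.17 (1.18 without 18 h replicate 3, edgeR adjusted p = 0.0017). *Msx1* missed the threshold when C59 12 h replicate 1 or 2 was left out (log2 fold change 0.86 to 1.14 over the 6 fits). *Msx2* had a log2 fold change of -0.41 ± 0.14 (-0.34 without 18 h replicate 3, edgeR adjusted p = 0.12), and *Id1*, *Id2*, *Id3* and *Id4* did not pass.

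*Mycn* and the cyclin D1 gene rose. *Mycn*, the MYC family member of limb mesenchyme (ENSMUSG00000037169, chr12:12936093-12941914), was at 56.5, 49.9 and 59.5 CPM at 12 h and 139, 126 and 132 CPM at 18 h under C59, against 132, 119 and 143 CPM and 107, 103 and 107 CPM in DMSO. At 18 h every C59 library was above every DMSO library of that time. *Mycn* rose by 1.26 ± 0.09 on the log2 scale (1.25 without 18 h replicate 3, edgeR adjusted p = 0.00050), it fell by 0.32 ± 0.07 on the log2 scale (edgeR adjusted p = 0.026) in DMSO, and the difference was 1.61 ± 0.12 (1.60 without 18 h replicate 3, edgeR adjusted p = 9.3e-06). *Ccnd1*, which encodes cyclin D1 of the G1 phase, went from 176, 171 and 157 CPM to 298, 282 and 297 CPM and rose by 0.80 ± 0.08 on the log2 scale (0.78 without 18 h replicate 3, edgeR adjusted p = 0.0020), with a difference between treatments of 0.89 ± 0.10 (0.88 without 18 h replicate 3, edgeR adjusted p = 0.00016). The other 12 tested genes of the list of MYC genes, D cyclins and CDK inhibitors did not pass, and without 18 h replicate 3, 4 of the list rose and 3 fell.

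**Figure D3:**
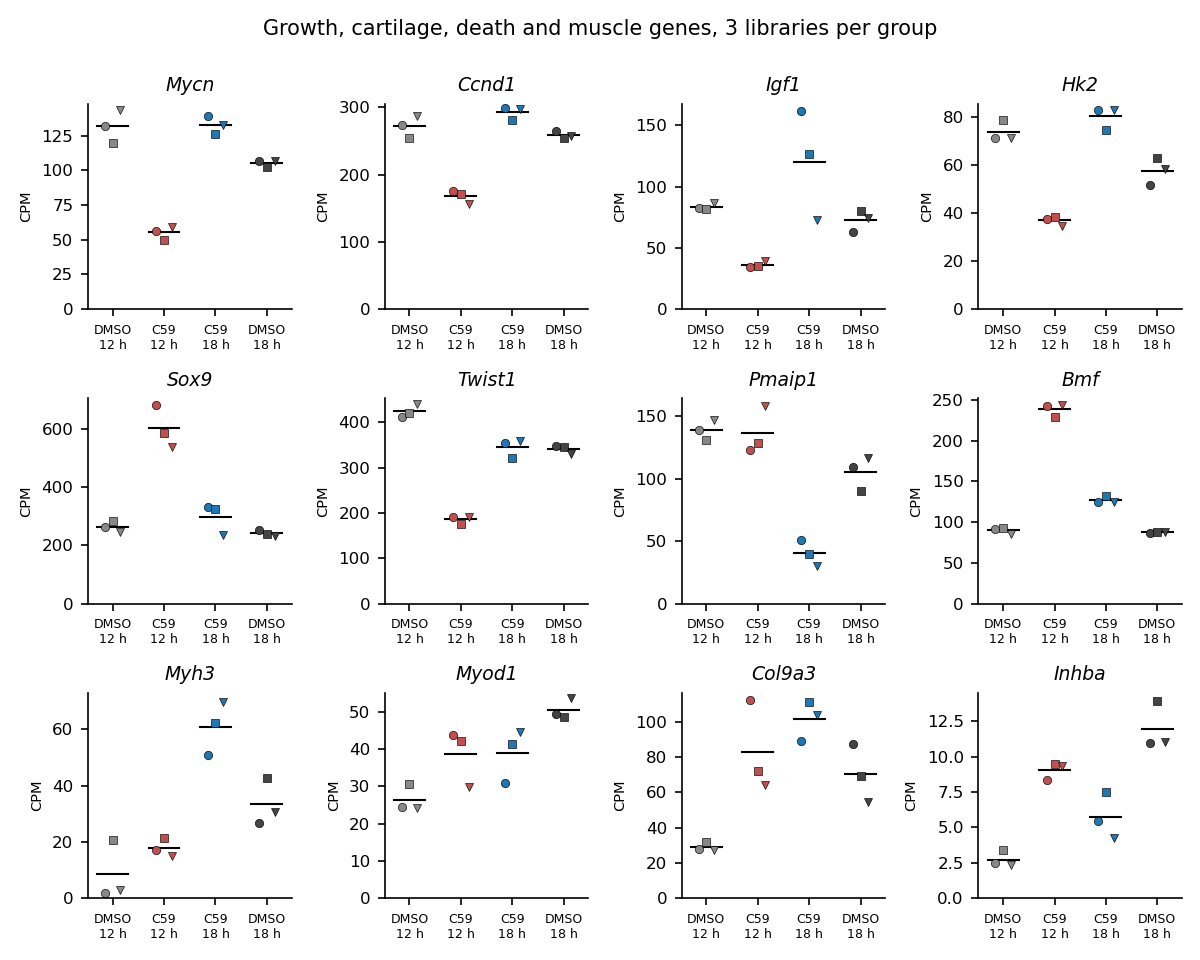
CPM of 12 genes of growth, differentiation and cell death (y axes) in the libraries of each group (x axis), drawn as in the plot of signalling genes. *Mycn* and *Hk2* at C59 18 h lie above DMSO 18 h, *Igf1* at C59 18 h spreads from 72.9 to 161 CPM, and *Sox9* falls from 538 to 681 CPM at C59 12 h to 235 to 330 CPM at 18 h.

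A minority of DNA replication genes rose. Of 37 DNA replication genes 8 rose and none fell (median 0.16), whereas in DMSO none rose and 5 fell (median -0.14). The difference between treatments was positive for 13. There were 12 increases without 18 h replicate 3, and without C59 12 h replicates 1, 2 and 3 and C59 18 h replicates 1 and 2 there were 2, 1, 2, 3 and 4. *Ccne1*, which encodes cyclin E1 of the entry into S phase, was at 47.1, 49.2 and 45.0 CPM at 12 h and 73.6, 76.2 and 83.0 CPM at 18 h, and at 98.1, 95.1 and 108 CPM and 80.8, 75.7 and 86.0 CPM in DMSO. It rose by 0.72 ± 0.09 on the log2 scale (0.66 without 18 h replicate 3, edgeR adjusted p = 0.0054) and differed between treatments by 1.06 ± 0.12 (1.001 without 18 h replicate 3, edgeR adjusted p = 0.00015).

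*Cdc6*, which loads the replicative helicase, went from 34.4, 32.9 and 36.2 CPM to 58.0, 50.9 and 52.5 CPM without overlap. It rose by 0.64 ± 0.09 on the log2 scale (0.65 without 18 h replicate 3, edgeR adjusted p = 0.0083), with a difference of 1.03 ± 0.11 (1.04 without 18 h replicate 3, edgeR adjusted p = 9.7e-05). *Cdc6* missed the threshold when C59 12 h replicate 2 was left out (log2 fold change 0.58 to 0.68 over the 6 fits). The transcription factor gene *E2f1* rose by 0.61 (0.52), *Cdt1* by 0.44 (0.34), the chromatin assembly gene *Chaf1b* by 0.43 (0.42), and the helicase subunits *Mcm3*, *Mcm4* and *Mcm6* by 0.41 (0.38), 0.35 (0.38) and 0.34 (0.31) on the log2 scale. *Cdt1*, *Chaf1b*, *Mcm4* and *Mcm6* each passed in 1 of the 6 fits that leave out 1 C59 library, *Mcm3* in 2 and *E2f1* in 3. *Pcna*, the sliding clamp, had a log2 fold change of 0.26 ± 0.08 (0.26 without 18 h replicate 3, edgeR adjusted p = 0.10).

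Most mitosis and spindle genes fell. Of 47 genes 32 fell and none rose, and all 47 had a negative log2 fold change, between -1.08 and -0.33 (median -0.63). In DMSO 2 fell and the median was -0.07, and 24 differed between treatments, all negative. The number was 43 without 18 h replicate 3, and the median -0.54. It was 17, 11 and 7 without C59 12 h replicates 1, 2 and 3 and 29 and 16 without C59 18 h replicates 1 and 2. With each library's trend over GC content removed, an alternative added after that trend was seen, 45 fell. Over all genes 926 fell in that fit, against 277 in the main fit, so the larger list count may only follow the larger total.

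*Ccnb2*, which encodes cyclin B2, a partner of the mitotic kinase CDK1 (ENSMUSG00000032218, chr9:70407692-70421547), was at 106, 109 and 129 CPM at 12 h and 58.7, 62.5 and 65.9 CPM at 18 h under C59. In DMSO it was at 122, 113 and 125 CPM and 103, 104 and 111 CPM. The C59 libraries at 18 h were the lowest of the 12. *Ccnb2* fell by 0.88 ± 0.10 on the log2 scale (-0.93 without 18 h replicate 3, edgeR adjusted p = 0.0034) and differed between treatments by -0.67 ± 0.12 (-0.72 without 18 h replicate 3, edgeR adjusted p = 0.0038). *Pttg1*, which encodes securin, the inhibitor of the enzyme that parts sister chromatids, went from 51.0, 57.3 and 74.7 CPM to 32.2, 29.3 and 25.5 CPM, against 58.4, 62.8 and 60.3 CPM and 63.2, 55.0 and 58.2 CPM in DMSO. It fell by 1.08 ± 0.15 on the log2 scale (-1.001 without 18 h replicate 3, edgeR adjusted p = 0.0068), a difference between treatments of -1.01 ± 0.17 (-0.93 without 18 h replicate 3, edgeR adjusted p = 0.0031).

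*Spc25*, a part of the kinetochore, was at 55.2, 53.4 and 62.9 CPM at 12 h and 34.98, 34.1 and 22.1 CPM at 18 h, lowest in replicate 3, and fell by 0.92 ± 0.16 on the log2 scale (-0.74 without 18 h replicate 3, edgeR adjusted p = 0.017). *Nusap1*, a spindle microtubule protein, fell by 1.08 ± 0.22 on the log2 scale (-0.83 without 18 h replicate 3, edgeR adjusted p = 0.026). *Spc25* missed the threshold when any 1 C59 12 h library was left out (log2 fold change -1.03 to -0.74 over the 6 fits). *Nusap1* missed the threshold when any 1 C59 12 h library or C59 18 h replicate 2 was left out (log2 fold change -1.25 to -0.83 over the 6 fits). The kinase genes *Plk1*, *Aurka* and *Cdk1* fell by 0.69 (-0.75), 0.60 (-0.62) and 0.44 (-0.39), and *Ccnb1* by 0.65 (-0.63). The proliferation markers *Mki67* and *Top2a* had log2 fold changes of -0.45 ± 0.20 (-0.24 without 18 h replicate 3, edgeR adjusted p = 0.23) and -0.54 ± 0.17 (-0.35 without 18 h replicate 3, edgeR adjusted p = 0.11), and the cyclin A gene *Ccna2* one of -0.33 ± 0.09 (-0.34 without 18 h replicate 3, edgeR adjusted p = 0.063).

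Promoters of genes expressed in G2 and M phase often carry a CHR element (TTTGAA) and CCAAT boxes bound by NF-Y. Windows were found for 26 of the 32 mitosis genes that fell, as 28 windows. On either strand TTTGAA was present in 19 of them (67.9%) and CCAAT in 24 (85.7%), against 17.9% and 37.4% of all 32851 windows. For the whole list of 47, with 44 windows of 40 symbols, the shares were 68.2% and 79.5%. These are matches of letters and not shown to be bound. The windows of *Ccnb2* (chr9:70421505-70421804, minus strand) and *Spc25* (chr2:69206164-69206463, minus strand) are shown. They were picked by the size of the decrease among mitosis genes that fell and whose windows hold both motifs. Both genes fell without overlap. The 2 windows are written 5′ to 3′ on the strand of the gene, with the matches on either strand in capitals.
Ccnb2: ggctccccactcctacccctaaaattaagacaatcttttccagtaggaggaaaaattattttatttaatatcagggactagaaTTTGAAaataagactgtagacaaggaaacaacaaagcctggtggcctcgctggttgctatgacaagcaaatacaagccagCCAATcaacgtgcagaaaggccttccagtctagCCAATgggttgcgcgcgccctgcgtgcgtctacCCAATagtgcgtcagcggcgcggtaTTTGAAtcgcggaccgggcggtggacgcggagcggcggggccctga
Spc25: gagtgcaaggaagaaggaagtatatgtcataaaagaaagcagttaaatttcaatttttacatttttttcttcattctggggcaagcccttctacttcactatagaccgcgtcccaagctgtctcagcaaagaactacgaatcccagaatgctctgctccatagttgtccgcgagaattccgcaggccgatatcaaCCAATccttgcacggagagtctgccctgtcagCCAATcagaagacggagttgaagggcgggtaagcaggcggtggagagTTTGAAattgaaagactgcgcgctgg
In *Ccnb2* the TTTGAA matches began at positions -167 and 4 and the CCAAT matches at -87, -54 and -21, counted from the first base of the transcript as 0. In *Spc25* the CCAAT matches began at -55 and -23 and the TTTGAA match at 24.

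**Figure D4:**
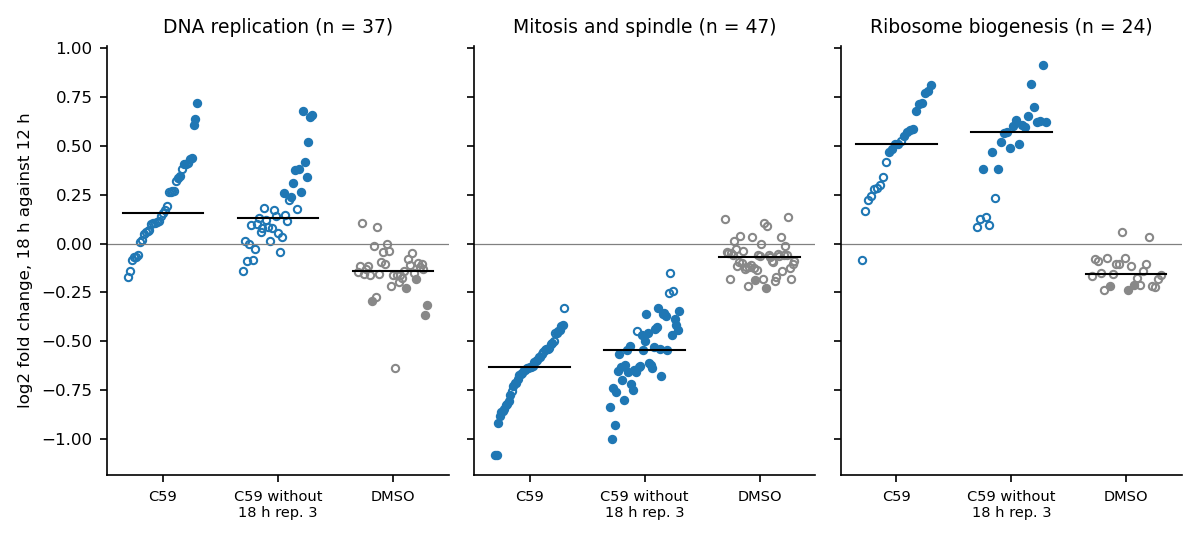
Log2 fold change between 12 h and 18 h (y axis) of each gene of the DNA replication (37), mitosis (47) and ribosome biogenesis (24) lists, in C59, in C59 without 18 h replicate 3 and in DMSO. Filled points passed the test and black bars are medians. All mitosis genes lie below 0 in C59, with a median of -0.63, against -0.07 in DMSO.

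Most ribosome biogenesis genes rose. These genes make and process ribosomal RNA in the nucleolus. Of 24 genes 14 rose and none fell (median 0.51), in DMSO none rose and 3 fell (median -0.15), and the difference between treatments was positive for 18. The number was 19 without 18 h replicate 3, without the C59 12 h replicates 1, 2 and 3 it was 3, 2 and 2, and without C59 18 h replicate 1 or 2 it was 8. *Polr1b*, a subunit of RNA polymerase I, was at 39.1, 39.9 and 41.2 CPM at 12 h and 64.2, 66.7 and 66.2 CPM at 18 h and rose by 0.71 ± 0.08 on the log2 scale (0.70 without 18 h replicate 3, edgeR adjusted p = 0.0034). *Ddx21*, a nucleolar helicase, went from 121, 125 and 136 CPM to 255, 228 and 175 CPM, lowest in replicate 3, and rose by 0.78 ± 0.13 on the log2 scale (0.91 without 18 h replicate 3, edgeR adjusted p = 0.012). *Ddx21* missed the threshold when any 1 C59 12 h library was left out (log2 fold change 0.66 to 0.91 over the 6 fits). *Rrp9*, *Bop1* and *Nop2*, which act in rRNA processing, rose by 0.81 (0.62), 0.77 (0.63) and 0.72 (0.62) on the log2 scale.

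Some metabolic genes rose, and none of the lists below fell in any member with all libraries. Of 26 glycolysis and hypoxia genes 3 rose and none fell, or 4 and 1 without 18 h replicate 3, while in DMSO 10 fell, and 8 differed between treatments, all positive. *Hk2*, which encodes the hexokinase of the first step of glycolysis, was at 37.8, 38.5 and 34.7 CPM at 12 h and 83.3, 74.9 and 83.1 CPM at 18 h, and at 71.5, 78.9 and 71.3 CPM and 51.6, 63.2 and 58.6 CPM in DMSO. It rose by 1.12 ± 0.09 on the log2 scale (1.09 without 18 h replicate 3, edgeR adjusted p = 0.00073) under C59 and fell by 0.35 ± 0.08 on the log2 scale (edgeR adjusted p = 0.030) in DMSO, a difference of 1.49 ± 0.12 (1.46 without 18 h replicate 3, edgeR adjusted p = 1.3e-05). *Ldha*, lactate dehydrogenase A, rose by 0.58 ± 0.13 on the log2 scale (0.51 without 18 h replicate 3, edgeR adjusted p = 0.040), and *P4ha2*, a collagen prolyl hydroxylase, rose by 0.53 ± 0.11 on the log2 scale (0.46 without 18 h replicate 3, edgeR adjusted p = 0.030). *Ldha* missed the threshold when any 1 C59 12 h library or C59 18 h replicate 1 was left out (log2 fold change 0.48 to 0.69 over the 6 fits). *P4ha2* missed the threshold when any 1 C59 12 h library or C59 18 h replicate 1 or 2 was left out (log2 fold change 0.46 to 0.60 over the 6 fits).

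Of 20 tested genes of ATF4 and one-carbon metabolism 6 rose and none fell (median 0.25), or 8 and 2 without 18 h replicate 3, in DMSO none rose and 1 fell, and 8 differed between treatments. *Mthfd2*, a mitochondrial folate enzyme, was at 24.6, 23.7 and 23.6 CPM at 12 h and 46.9, 41.1 and 48.9 CPM at 18 h, between C59 12 h and the 63.9, 59.4 and 59.3 CPM of DMSO 18 h. It rose by 0.93 ± 0.10 on the log2 scale (0.87 without 18 h replicate 3, edgeR adjusted p = 0.0028), with a difference of 1.18 ± 0.12 (1.12 without 18 h replicate 3, edgeR adjusted p = 8.8e-05). The serine synthesis genes *Phgdh* and *Psat1* rose by 0.76 (0.61) and 0.55 (0.57), the amino acid transporter gene *Slc7a5* by 0.61 (0.50), *Cth* of cysteine synthesis by 0.73 (0.68) and asparagine synthetase *Asns* by 0.40 (0.40). Without C59 12 h replicates 1, 2 and 3 the number that rose was 3, 1 and 1.

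Chaperone genes fell in DMSO. Of 15 heat shock and chaperone genes 2 rose under C59 (median 0.14) and 6 differed between treatments, all positive, whereas 10 of 14 tested in DMSO fell (median -0.27). *Hspa8*, the constitutive cytosolic HSP70, was at 1075, 1014 and 1075 CPM at 12 h and 1609.5, 1468 and 1655 CPM at 18 h under C59, and at 1738, 1679 and 1791 CPM and 1259, 1194 and 1213 CPM in DMSO. It rose by 0.58 ± 0.09 on the log2 scale (0.54 without 18 h replicate 3, edgeR adjusted p = 0.0086), it fell by 0.51 ± 0.04 on the log2 scale (edgeR adjusted p = 0.00093) in DMSO, and the difference was 1.11 ± 0.09 (1.07 without 18 h replicate 3, edgeR adjusted p = 1.3e-05). *Hsph1*, an HSP110 family chaperone, rose by 0.62 ± 0.10 on the log2 scale (0.70 without 18 h replicate 3, edgeR adjusted p = 0.0098), with a difference of 1.10 ± 0.12 (1.19 without 18 h replicate 3, edgeR adjusted p = 0.00011). *Hspa8* and *Hsph1* missed the threshold when any 1 C59 12 h library was left out (log2 fold change 0.54 to 0.63 and 0.56 to 0.70 over the 6 fits). Without 18 h replicate 3, 7 genes of the list rose and 2 fell.

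Cell death genes moved in both directions. Of 16 tested genes of cell death and p53 2 rose and 2 fell, or 2 and 7 of 17 without 18 h replicate 3. *Pmaip1*, which encodes the BH3-only protein NOXA, was at 123, 128 and 158 CPM at 12 h and 50.9, 40.0 and 30.1 CPM at 18 h under C59, and at 139, 131 and 147 CPM and 109, 90.2 and 117 CPM in DMSO. The C59 libraries at 18 h were the lowest of the 12. *Pmaip1* fell by 1.76 ± 0.18 on the log2 scale (-1.59 without 18 h replicate 3, edgeR adjusted p = 0.0018), and its change differed from that in DMSO by -1.33 ± 0.22 (-1.16 without 18 h replicate 3, edgeR adjusted p = 0.0021). *Bmf*, a further BH3-only gene, went from 242, 229 and 244 CPM to 124, 133 and 125 CPM, both above the 91.2, 93.4 and 85.9 CPM and 86.3, 87.6 and 88.1 CPM of DMSO. It fell by 0.91 ± 0.08 on the log2 scale (-0.90 without 18 h replicate 3, edgeR adjusted p = 0.00080), a difference of -0.84 ± 0.09 (-0.83 without 18 h replicate 3, edgeR adjusted p = 8.1e-05).

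*Bid*, also of the BH3-only class, was at 9.48, 7.69 and 8.64 CPM at 12 h and 18.0, 17.3 and 17.1 CPM at 18 h and rose by 1.02 ± 0.12 on the log2 scale (1.03 without 18 h replicate 3, edgeR adjusted p = 0.0036). *Aen*, an apoptosis-enhancing nuclease induced by p53, went from 22.6, 24.3 and 22.2 CPM to 50.9, 40.2 and 58.0 CPM, with DMSO at 51.5, 49.3 and 57.1 CPM and 46.5, 46.8 and 48.2 CPM. It rose by 1.11 ± 0.14 on the log2 scale (0.97 without 18 h replicate 3, edgeR adjusted p = 0.0052). The 4 calls held with any 1 C59 library left out.

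Most cartilage genes rose in DMSO and none did under C59 with all libraries, but only 3 of the 18 differed between treatments. Of 18 chondrogenic and cartilage matrix genes 2 fell and none rose under C59 (median 0.10), although 2 rose without C59 12 h replicate 1 and 1 rose and 3 fell without 18 h replicate 3, whereas in DMSO 12 rose and 1 fell (median 0.64). The difference between treatments was negative for 3 and its median over the list -0.69, against -0.0104 over all genes tested. *Sox9*, the master factor of cartilage (ENSMUSG00000000567, chr11:112782224-112787760), was at 681, 584 and 538 CPM at 12 h and 329.8, 324 and 235 CPM at 18 h under C59, and at 263, 285 and 245 CPM and 254, 237 and 232 CPM in DMSO. At 12 h the C59 libraries were the highest of the 12, and at 18 h replicate 3 lay among the DMSO libraries and the other 2 above them. *Sox9* fell by 1.03 ± 0.14 on the log2 scale (-0.89 without 18 h replicate 3, edgeR adjusted p = 0.0066) and differed between treatments by -0.87 ± 0.16 (-0.73 without 18 h replicate 3, edgeR adjusted p = 0.0053).

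*Hapln1*, which encodes a link protein of cartilage matrix, fell by 0.81 ± 0.19 on the log2 scale (-0.64 without 18 h replicate 3, edgeR adjusted p = 0.043), and it fell by 0.92 ± 0.09 on the log2 scale (edgeR adjusted p = 0.0016) in DMSO. *Col9a3*, a cartilage collagen chain, was at 112, 72.0 and 64.4 CPM at 12 h and 89.1, 111 and 104 CPM at 18 h under C59, with overlap, while DMSO went from 28.0, 31.8 and 27.6 CPM to 87.5, 69.2 and 54.3 CPM. Its log2 fold change was 0.29 ± 0.19 (0.27 without 18 h replicate 3, edgeR adjusted p = 0.43), it rose by 1.27 ± 0.15 on the log2 scale (edgeR adjusted p = 0.0031) in DMSO, and the difference was -0.96 ± 0.27 (-0.98 without 18 h replicate 3, edgeR adjusted p = 0.044). The difference for *Col9a3* passed in 4 of the 12 fits that leave out 1 library, between -1.11 and -0.68, and did not pass on leaving out C59 12 h replicate 1 or 2, or C59 18 h replicate 1, or any 1 DMSO 12 h library, or DMSO 18 h replicate 1 or 2. *Col2a1*, the main cartilage collagen, had a log2 fold change of 0.04 ± 0.15 (0.08 without 18 h replicate 3, edgeR adjusted p = 0.91). *Hapln1* missed the threshold when any 1 C59 12 h library or C59 18 h replicate 2 was left out (log2 fold change -0.98 to -0.64 over the 6 fits).

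Of 14 genes of condensation adhesion and matrix 1 rose under C59, or 3 without 18 h replicate 3. *Tnc*, which encodes the matrix protein tenascin C, rose by 0.72 ± 0.13 on the log2 scale (0.65 without 18 h replicate 3, edgeR adjusted p = 0.018). *Tnc* missed the threshold when any 1 C59 12 h library or C59 18 h replicate 2 was left out (log2 fold change 0.63 to 0.83 over the 6 fits). In DMSO 3 rose. *Sulf1*, an enzyme that trims heparan sulfate, was at 208, 234 and 287 CPM at 12 h and 181, 213 and 187 CPM at 18 h under C59, both above DMSO at 62.0, 75.1 and 56.8 CPM and 113, 139 and 118 CPM. Its log2 fold change was -0.33 ± 0.12 (-0.31 without 18 h replicate 3, edgeR adjusted p = 0.17), and it rose by 0.94 ± 0.10 on the log2 scale (edgeR adjusted p = 0.0024) in DMSO, a difference of -1.24 ± 0.18 (-1.22 without 18 h replicate 3, edgeR adjusted p = 0.00086). Of 13 tendon and connective tissue genes *Col3a1* rose by 0.41 (0.38) under C59 at an edgeR adjusted p of 0.026, and 6 rose in DMSO. *Col3a1* missed the threshold when any 1 C59 12 h library or C59 18 h replicate 2 was left out (log2 fold change 0.38 to 0.46 over the 6 fits). Of the tendon list 5 rose and 1 fell without 18 h replicate 3, where 10.1% and 10% of all genes did. The small proteoglycan gene *Lum* differed between treatments by -1.13 ± 0.21 (-1.01 without 18 h replicate 3, edgeR adjusted p = 0.0047).

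Sarcomere genes rose, and none of the muscle regulators passed under C59 with all libraries. Of 12 muscle progenitor and regulatory factors tested, 1 rose and 1 fell without 18 h replicate 3. In DMSO 7 rose and 1 fell, and 4 differed between treatments, all negative. *Myod1*, which commits cells to muscle, was at 43.7, 42.2 and 29.8 CPM at 12 h and 30.8, 41.2 and 44.5 CPM at 18 h under C59, and went from 24.4, 30.6 and 24.1 CPM to 49.4, 48.6 and 53.5 CPM in DMSO. Its log2 fold change under C59 was 0.01 ± 0.18 (-0.11 without 18 h replicate 3, edgeR adjusted p = 0.99), it rose by 0.94 ± 0.09 on the log2 scale (edgeR adjusted p = 0.0017) in DMSO, and the difference was -0.91 ± 0.22 (-1.02 without 18 h replicate 3, edgeR adjusted p = 0.021). *Myog*, which drives differentiation, was at 70.3, 76.9 and 61.8 CPM at 12 h and 66.7, 78.0 and 96.9 CPM at 18 h under C59, with overlap, and went from 18.4, 36.8 and 15.8 CPM to 66.3, 64.5 and 61.5 CPM in DMSO. Its difference was -1.21 ± 0.32 (-1.37 without 18 h replicate 3, edgeR adjusted p = 0.032). The difference for *Myod1* passed in 7 of the 12 fits that leave out 1 library, between -1.06 and -0.76, and did not pass on leaving out C59 12 h replicate 1 or 2, or DMSO 12 h replicate 1 or 3, or DMSO 18 h replicate 3. The difference for *Myog* passed in 3 of the 12 fits that leave out 1 library, between -1.67 and -0.998, and did not pass on leaving out C59 12 h replicate 1 or 2, or C59 18 h replicate 1 or 2, or DMSO 12 h replicate 1 or 3, or any 1 DMSO 18 h library.

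Of 15 sarcomere and neuromuscular genes 9 rose under C59 (median 1.09) and 8 in DMSO (median 1.60). *Myh3*, the embryonic myosin heavy chain, was at 17.2, 21.4 and 14.9 CPM at 12 h and 50.8, 62.1 and 69.6 CPM at 18 h under C59, and at 2.05, 20.8 and 2.83 CPM and 26.9, 42.6 and 30.6 CPM in DMSO. DMSO 12 h replicate 2 lay far above the other 2 of its group. *Myh3* rose by 1.77 ± 0.16 on the log2 scale (1.65 without 18 h replicate 3, edgeR adjusted p = 0.0013). *Acta1*, skeletal actin, went from 1.96, 2.98 and 2.67 CPM to 7.90, 12.4 and 18.9 CPM, highest in replicate 3, and rose by 2.35 ± 0.32 on the log2 scale (1.97 without 18 h replicate 3, edgeR adjusted p = 0.0066). The troponin genes *Tnni1* and *Tnnc1* rose by 1.44 (1.13) and 1.29 (1.01). Without C59 12 h replicates 1, 2 and 3 the number that rose was 2, 3 and 2, and it was 4 without C59 18 h replicate 2 and 9 without replicate 1 or 3 of that group.

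Patterning genes mostly did not pass. None of 11 HoxA genes did (1 fell without 18 h replicate 3). Of 9 HoxD genes 1 fell, or 2 without 18 h replicate 3. *Hoxd12* fell by 0.55 ± 0.13 on the log2 scale (-0.55 without 18 h replicate 3, edgeR adjusted p = 0.040). *Hoxd12* missed the threshold when any 1 C59 12 h library or C59 18 h replicate 1 or 2 was left out (log2 fold change -0.66 to -0.39 over the 6 fits). *Hoxd13*, the most distal gene of the cluster, was at 149, 168 and 238 CPM at 12 h and 184, 166 and 140.3 CPM at 18 h, with a log2 fold change of -0.18 ± 0.17 (-0.09 without 18 h replicate 3, edgeR adjusted p = 0.58) that turned to 0.04 without C59 12 h replicate 3. None of 15 proximal and retinoic acid genes passed under C59 with all libraries. Without 18 h replicate 3, 2 rose and 2 fell (10.1% and 10% over all genes). *Aldh1a2*, which makes retinoic acid, was at 51.6, 57.2 and 66.7 CPM at 12 h and 50.5, 59.6 and 57.7 CPM at 18 h under C59, while DMSO went from 14.6, 26.9 and 12.3 CPM to 42.0, 48.0 and 38.1 CPM. Its difference between treatments was -1.30 ± 0.29 (-1.34 without 18 h replicate 3, edgeR adjusted p = 0.012).

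Among 21 limb patterning transcription factors 1 rose and 3 fell. *Twist1*, a factor of undifferentiated mesenchyme (ENSMUSG00000035799, chr12:33957671-33959829), was at 191, 176 and 190.0 CPM at 12 h and 355, 321 and 358 CPM at 18 h under C59, and at 412, 419.7 and 439 CPM and 347, 345 and 331 CPM in DMSO. At 18 h the C59 and DMSO libraries overlapped. *Twist1* rose by 0.89 ± 0.09 on the log2 scale (0.86 without 18 h replicate 3, edgeR adjusted p = 0.0013), it fell by 0.31 ± 0.05 on the log2 scale (edgeR adjusted p = 0.0073) in DMSO, and the difference was 1.23 ± 0.10 (1.20 without 18 h replicate 3, edgeR adjusted p = 9.5e-06). The zinc finger genes *Sall4*, *Sall3* and *Sall1* fell by 0.93 (-0.78), 0.85 (-0.97) and 0.77 (-0.78). The first 2 also fell in DMSO, by 0.95 and 0.72. *Sall4* missed the threshold when any 1 C59 12 h library or C59 18 h replicate 2 was left out (log2 fold change -1.15 to -0.78 over the 6 fits). *Sall3* missed the threshold when C59 12 h replicate 2 or 3 or C59 18 h replicate 2 was left out (log2 fold change -0.97 to -0.72 over the 6 fits). *Sall1* missed the threshold when C59 12 h replicate 2 or 3 was left out (log2 fold change -0.90 to -0.62 over the 6 fits). Without 18 h replicate 3, 5 genes of the list rose and 3 fell (10.1% and 10% over all genes).

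*Igf1* was the 1 of 8 IGF genes to rise with all libraries (ENSMUSG00000020053, chr10:87858265-87937042), and without 18 h replicate 3, 2 rose and 1 fell. This growth factor gene was at 34.0, 35.3 and 39.1 CPM at 12 h and 161, 126 and 72.9 CPM at 18 h under C59, with 18 h replicate 3 lowest, and at 82.4, 81.4 and 86.4 CPM and 62.7, 80.2 and 74.1 CPM in DMSO. Replicates 1 and 2 at 18 h lay above every DMSO library. *Igf1* rose by 1.73 ± 0.24 on the log2 scale (1.98 without 18 h replicate 3, edgeR adjusted p = 0.0066) and differed between treatments by 1.96 ± 0.28 (2.21 without 18 h replicate 3, edgeR adjusted p = 0.00088). Macrophages can also express *Igf1*. Their 15 markers summed to between 78.2 and 79.9 CPM at 12 h and between 90.0 and 101 CPM at 18 h under C59, with 1 that rose (*C1qa*, lost when any C59 library but 18 h replicate 3 was left out), none that fell (also without 18 h replicate 3) and none at 0, and to 47.9 to 54.2 CPM and 67.9 to 73.4 CPM in DMSO. Their part in the *Igf1* value was not tested.

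**Figure D5:**
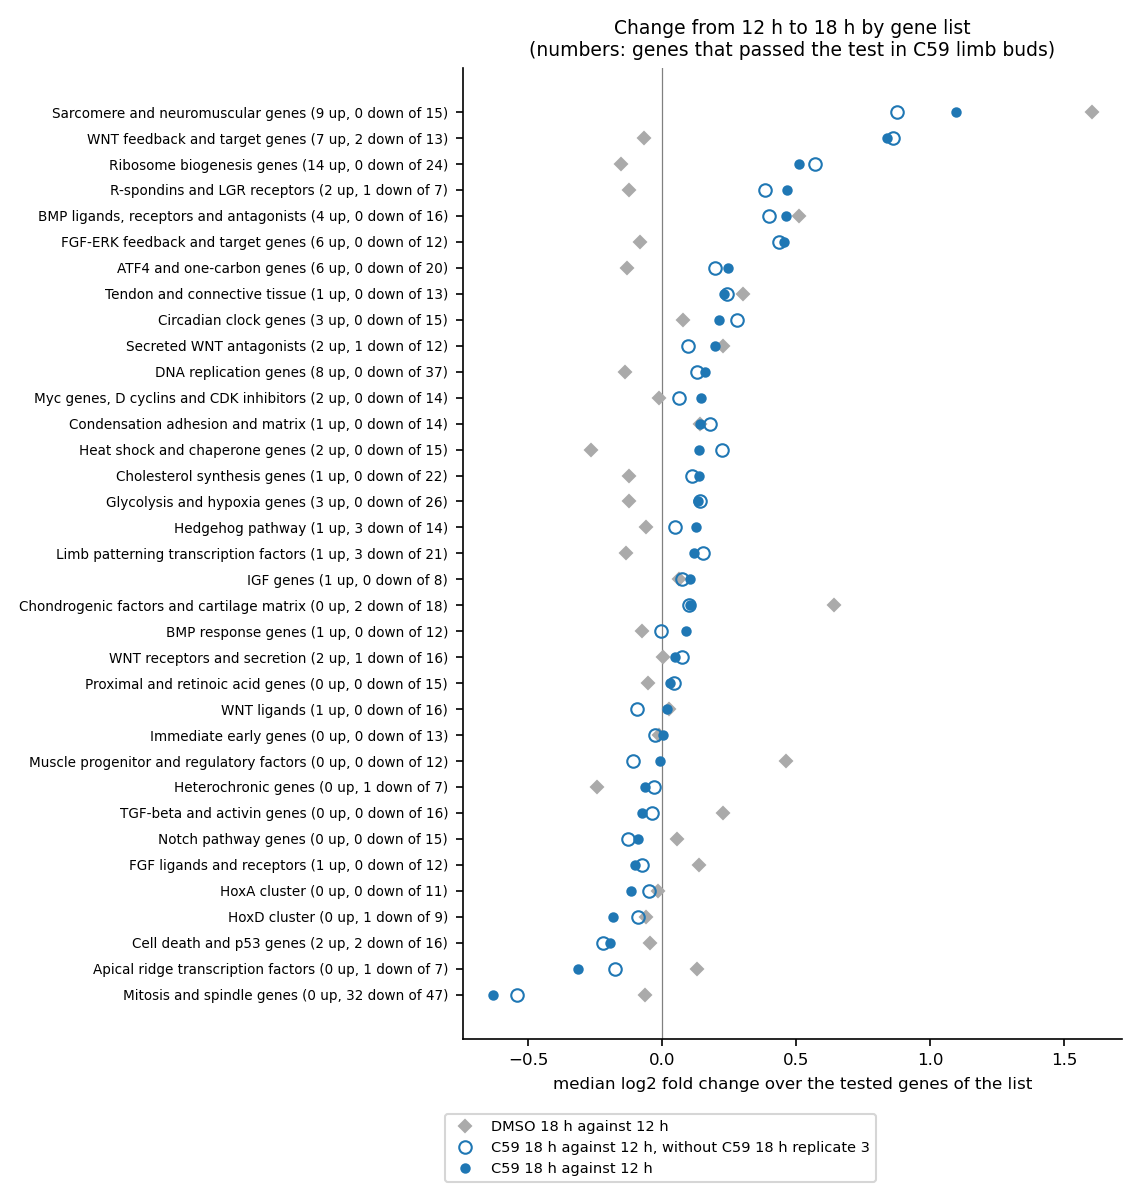
Median log2 fold change between 12 h and 18 h (x axis) of each gene list (y axis), in C59 (filled), in C59 without 18 h replicate 3 (open) and in DMSO (diamonds). Medians in C59 run from -0.63 (mitosis genes, -0.07 in DMSO) to 1.09 (sarcomere genes, 1.60 in DMSO). WNT feedback genes lie at 0.84 in C59 and -0.07 in DMSO, ribosome biogenesis genes at 0.51 and -0.15, and cartilage genes at 0.10 and 0.64.

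The largest single changes included genes outside these lists. After filters on size, overlap and level, 162 genes remained, 100 higher and 62 lower. *Ctse*, which encodes the protease cathepsin E (ENSMUSG00000004552, chr1:131638306-131675505), was at 0.109, 0.294 and 0.0920 CPM at 12 h and 7.11, 7.69 and 9.83 CPM at 18 h under C59, against 6.64, 6.46 and 10.1 CPM and 4.76, 3.34 and 6.86 CPM in DMSO. The C59 libraries at 18 h lay within or near the DMSO range and far above those at 12 h. *Ctse* rose by 5.53 ± 0.35 on the log2 scale (5.37 without 18 h replicate 3, edgeR adjusted p = 0.00024), a difference between treatments of 6.22 ± 0.52 (6.07 without 18 h replicate 3, edgeR adjusted p = 1.3e-05). *Col6a5*, a chain of collagen VI, rose by 4.67 ± 0.47 on the log2 scale (4.78 without 18 h replicate 3, edgeR adjusted p = 0.0016) from a total of 4 counts at 12 h. *Padi4*, which encodes an enzyme that converts arginine to citrulline, was at 2.61, 0.0420 and 0.230 CPM at 12 h and 9.91, 8.44 and 13.9 CPM at 18 h, with at most 0.162 CPM in DMSO, and rose by 3.603 ± 0.73 on the log2 scale (3.37 without 18 h replicate 3, edgeR adjusted p = 0.026). *Padi4* missed the threshold when C59 12 h replicate 2 or 3 or C59 18 h replicate 2 was left out (log2 fold change 2.97 to 6.29 over the 6 fits).

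*Nr1h5*, a nuclear receptor gene, had 0 counts in all 3 C59 libraries at 12 h and 386, 155 and 142 counts at 18 h. Against a floor of 3 counts over the 12 h group (0.0470 CPM) it was at least 231-fold higher. In DMSO it had 380 counts in 18 h replicate 2 and 0 in the other 5 libraries, so single libraries differed for this gene without the drug too. *Trpm1*, a cation channel gene, had 0, 1 and 0 counts at 12 h and 15, 14 and 14 counts at 18 h, against 14 to 26 counts in the 6 DMSO libraries. It differed between treatments at an edgeR adjusted p of 0.0016, and its fitted fold depends on a single count.

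Decreases among these genes included *Stk32a*, a serine/threonine kinase gene. It was at 13.1, 14.8 and 19.4 CPM at 12 h and 2.198, 2.45 and 1.77 CPM at 18 h under C59, and at 1.05, 2.12 and 1.19 CPM and 2.38, 1.77 and 2.49 CPM in DMSO. The 12 h libraries under C59 were high and the other 9 low. *Stk32a* fell by 2.88 ± 0.20 on the log2 scale (-2.78 without 18 h replicate 3, edgeR adjusted p = 0.00037), a difference of -3.44 ± 0.36 (-3.32 without 18 h replicate 3, edgeR adjusted p = 9.0e-05). *Lrrn3*, a neuronal leucine-rich repeat gene, went from 25.9, 27.5 and 37.7 CPM to 8.89, 11.9 and 7.34 CPM under C59, near the 8.65, 10.1 and 8.37 CPM of DMSO 18 h. It fell by 1.70 ± 0.20 on the log2 scale (-1.56 without 18 h replicate 3, edgeR adjusted p = 0.0036), it rose by 1.56 ± 0.21 on the log2 scale (edgeR adjusted p = 0.0053) in DMSO, and the difference was -3.23 ± 0.31 (-3.09 without 18 h replicate 3, edgeR adjusted p = 4.6e-05). *Lbp*, which encodes lipopolysaccharide-binding protein, fell by 2.02 (-2.11) and *Wdr72* by 2.38 (-2.26), with edgeR adjusted p = 0.0062 and 0.0084.

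Some of the largest values belong to genes that may have near-identical copies, and their counts may be uncertain. Whether reads shared between copies affected these values was not tested. *Rpl26*, a ribosomal protein gene, was at 29.4, 30.4 and 30.03 CPM at 12 h and 305, 165 and 221 CPM at 18 h, against 26.0 to 36.0 CPM in DMSO, and differed between treatments by 3.17 ± 0.24 (3.19 without 18 h replicate 3, edgeR adjusted p = 9.3e-06). *Gm14226* rose by 2.67 (2.86), and *Tpm3-rs7* and *Gm4737* fell by 5.77 (-5.53) and 5.23 (-5.64). *Duxbl1* had 16, 41 and 28 counts at 12 h and 0 in the 3 libraries at 18 h, at least 26.9-fold lower against a floor of 3 counts over the 18 h group.

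Among markers of other cells of the limb bud, part of the erythroid ones fell, and few others passed with all libraries. None of 14 endothelial markers passed (5 fell without 18 h replicate 3), and their sum went from 582 to 646 CPM at 12 h to 513 to 577 CPM at 18 h. Of 12 erythroid markers tested 3 fell, and 9 without 18 h replicate 3, where 2.05% and 10% of all genes did. All 12 had a negative log2 fold change. Their sums were 6876 to 9842 CPM at 12 h and 5100 to 7789 CPM at 18 h, and 3 fell in DMSO as well. *Hba-a2*, listed among them, had at most 1 count in any C59 library. None of 10 Schwann cell precursor and neural crest markers tested passed (1 fell without 18 h replicate 3, with sums of 132 to 184 CPM and 154 to 182 CPM), nor did any of 5 mesenchyme and limb identity markers (1 rose without 18 h replicate 3, with sums of 883 to 966 CPM and 868 to 1192 CPM). The part of these cells in the results above was not tested.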

How the data were processed

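PolyA RNA-sequencing of forelimb buds was analysed from 2 deposited tables. Groups were taken from the sample labels. The raw counts per gene were written by the authors with STAR during mapping to mm10, and the strand of counting is not given in the sources used here. Overlapping or antisense genes can therefore share counts. The authors made the FPKM values, which are scaled for transcript length and depth, with Cufflinks in its unstranded mode. The submitters' processing notes name cutadapt 1.16, STAR 2.7.0e, Cufflinks 2.2.1 and deepTools 3.5.5. The count table held 50833 genes, of which 50628 matched GENCODE M21, 20569 were protein-coding, and none lay on chromosomes X, Y or M.

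Protein-coding genes were tested by the two-sided quasi-likelihood test of edgeR 4.0.16 (R 4.3.3) with TMM factors. Low genes were removed by filterByExpr (minimum count 10, minimum total 15), with Benjamini-Hochberg adjustment over all genes tested. No covariates were used. A change over time was fitted on the 6 libraries of the treatment, and the difference between treatments on the 12 libraries as an interaction contrast. Genes passed at an adjusted p below 0.05. Standard errors were derived from the F statistic. The scripts were tested on simulated data. Alternatives were the test of DESeq2 1.42.0, edgeR with DESeq2 size factors or with upper-quartile scaling, no filter beyond 1 count, a filter on the mean at 1 CPM, non-coding genes included, a fit on all 30 libraries, limma 3.58.1 on log2(FPKM + 1) and log2(FPKM + 0.1) of genes with a mean of at least 0.5 FPKM, the replicate number as a block, each replicate left out, and an offset for GC content, which was chosen after seeing the data. Changes on the log2(FPKM + pseudocount) scale understate those of low genes. For genes at 0 a floor of 3 counts over the group was used. It covers only counting error, as no molecular identifiers are named in the sources used here.

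The comparison, the 35 gene lists, the 7 marker lists and the rule for named genes were chosen with earlier results of these data known. The rule allowed members of the lists, the 15 largest increases and decreases among genes that passed with a log2 fold change beyond 1, no overlap of the groups and 1 CPM or more on average in the higher group, and by the same filter the 10 most positive and most negative differences between treatments. Promoter windows came from RefSeq (GRCm38.p6). Of the genes sharing the symbol *Aldoa* the one with more counts was used.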

Additional observations from a re-analysis of the deposited data

Results flagged for a closer look

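For 1162 genes the change from 12 h to 18 h differed between C59 and DMSO by the test of the difference itself (edgeR, adjusted p below 0.05), 8.49% of those tested. Values here are the log2 change in C59 minus that in DMSO. No explanation was tested for any of them.

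Among WNT genes the difference was 1.30 for *Axin2*, 2.07 for *Nkd2*, 1.94 for *Apcdd1*, 1.11 for *Nkd1*, 3.87 for *Notum*, 1.05 for *Tcf7*, 1.12 for *Wif1*, 1.34 for *Fzd10*, -1.27 for *Rspo3* and 0.55 for *Dkk2*. In the other signalling groups it was 2.47 for *Fgf8*, 3.52 for *Fgf4*, 1.20 for *Etv4*, 2.26 for *Grem1*, 2.78 for *Shh*, -0.78 for *Gli1*, -0.57 for *Ptch1*, 0.97 for *Bmp4*, 0.81 for *Bmp7*, -1.55 for *Nog*, -0.95 for *Bmper*, -1.09 for *Bmpr1b* and 1.12 for *Msx1*. Growth and cell cycle genes gave 1.61 for *Mycn*, 1.96 for *Igf1*, 0.89 for *Ccnd1*, -0.67 for *Ccnb2*, 1.06 for *Ccne1*, 1.03 for *Cdc6* and -1.01 for *Pttg1*. Metabolic and chaperone genes gave 1.49 for *Hk2*, 1.18 for *Mthfd2*, 1.11 for *Hspa8* and 1.10 for *Hsph1*.

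The difference was -1.33 for *Pmaip1* and -0.84 for *Bmf* among cell death genes, and 1.23 for the mesenchymal factor *Twist1*. Genes of differentiation and the proximal limb gave -0.87 for *Sox9*, -0.96 for *Col9a3*, -1.24 for *Sulf1*, -1.13 for *Lum*, -0.91 for *Myod1*, -1.21 for *Myog* and -1.30 for *Aldh1a2*. The activin gene *Inhba* had the most negative value of the named list members, -2.78, as set out below. Outside the lists the difference was 6.22 for *Ctse*, 5.56 for *Trpm1*, whose fit rests on 1 count in C59 at 12 h, -3.44 for *Stk32a* and -3.23 for *Lrrn3*. Genes that may have near-identical copies gave 3.17 for *Rpl26*, 2.67 for *Gm14226*, -5.96 for *Tpm3-rs7* and -4.13 for *Gm4737*.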

How the results depend on the processing

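Against 430 higher and 277 lower genes, DESeq2 gave 757 and 517, the fit on all 30 libraries 1690 and 1475, and the GC offset, added after seeing the data, 1135 and 926. With a log2 fold change beyond 1 (104 and 68) the fit on all 30 libraries gave 184 and 105, limma on log2(FPKM + 1) 35 and 21, and limma on log2(FPKM + 0.1) 40 lower genes. The 1162 differences between treatments became 2491 with all 30 libraries and 2092 with the GC offset, and the 972 changes in DMSO became 501 and 479 with limma at the larger and the smaller pseudocount. The other alternatives stayed within 1.5 times. Leaving out single replicates gave 95 to 1373 higher and 46 to 1362 lower genes, 49 to 138 and 21 to 97 with the fold, 656 to 2105 differences between treatments and 127 to 2121 changes in DMSO. For the differences the libraries that moved the count by more than 1.5 times were DMSO 12 h replicates 1 (709) and 3 (656), C59 12 h replicate 2 (723), DMSO 18 h replicate 2 (735) and C59 18 h replicate 3 (2105). For DMSO they were 12 h replicates 1 (127) and 3 (154) and 18 h replicates 1 (2121), 2 (251) and 3 (347). With the fold they were C59 12 h replicates 1, 2 and 3 (60, 55 and 49 higher, 37, 25 and 21 lower) and, for lower genes, C59 18 h replicates 1 and 2 (45 and 43). Fits without 1 library rest on fewer samples. Of the 707 genes 703 also passed with DESeq2 and 699 with the GC offset, and every alternative fit kept the direction of each of the 707 that it tested. The value of *Hoxd13*, which did not pass, turned from -0.18 to 0.043 without C59 12 h replicate 3 and lay between -0.32 and 0.043 over the left-out replicates. The cause of these moves was not tested.

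Replicate numbers were shared between groups but did not pair the libraries. Deviations of same-numbered C59 libraries correlated at -0.04, 0.02 and 0.02. With the replicate block 300 genes were higher and 189 lower (95 and 57 with the fold), 1123 differed between treatments and 840 changed in DMSO, and 455 of the 707 remained past the test.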

Other observations

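Of 16 TGF-beta and activin genes tested none passed under C59 (3 fell without 18 h replicate 3). *Inhba*, which encodes an activin subunit, was at 8.34, 9.50 and 9.33 CPM at 12 h and 5.47, 7.49 and 4.27 CPM at 18 h under C59, and went from 2.50, 3.396 and 2.32 CPM to 11.0, 13.9 and 11.0 CPM in DMSO. It rose by 2.14 ± 0.17 on the log2 scale (edgeR adjusted p = 0.00092) in DMSO, and the difference between treatments was -2.78 ± 0.28 (-2.61 without 18 h replicate 3, edgeR adjusted p = 6.1e-05).

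Clock genes rose in 3 of 15 members tested and fell in none. *Per2*, a repressor of the circadian loop, rose by 1.07 ± 0.21 on the log2 scale (1.08 without 18 h replicate 3, edgeR adjusted p = 0.023), and it rose by 0.74 ± 0.17 on the log2 scale (edgeR adjusted p = 0.033) in DMSO. *Ciart* and *Cry1* rose by 0.81 and 0.40 on the log2 scale (0.79 and 0.41 without 18 h replicate 3). Without C59 12 h replicates 1, 2 and 3 1, 0 and 0 of them rose, and 6 did with C59 18 h replicate 3 left out and 1 with either of its other replicates left out.

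Of 22 cholesterol synthesis genes 1 rose under C59 (6 rose and 1 fell without 18 h replicate 3), 2 fell in DMSO and 7 differed between treatments, all positive. *Insig1*, a brake on the pathway that it also reads, rose by 0.54 ± 0.10 on the log2 scale (0.51 without 18 h replicate 3, edgeR adjusted p = 0.016). *Insig1* missed the threshold when any 1 C59 12 h library or C59 18 h replicate 2 was left out (log2 fold change 0.50 to 0.60 over the 6 fits). Among 7 heterochronic genes *Lin28a*, which holds back the let-7 microRNAs, was at 2.89, 3.61 and 4.09 CPM at 12 h and 1.78, 1.15 and 1.15 CPM at 18 h under C59 and fell by 1.38 ± 0.26 on the log2 scale (-1.28 without 18 h replicate 3, edgeR adjusted p = 0.020), while 5 of the list fell in DMSO. Of that list 1 rose and 2 fell under C59 without 18 h replicate 3. *Lin28a* missed the threshold when C59 12 h replicate 2 or 3 or C59 18 h replicate 2 was left out (log2 fold change -1.62 to -1.26 over the 6 fits). None of 15 Notch pathway genes and none of 13 immediate early genes tested passed under C59 with all libraries by edgeR, and 2 Notch genes fell without 18 h replicate 3. At an unadjusted p under 0.05 the whole comparison held 2948 genes.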
